A study of Rattus norvegicus with 9 samples.

Results

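Among 41078 rat transcripts counted in PC12 cells, 224 were much lower when the cells were given erastin and stood at about the untreated level when PQR NPs were given with it. These 224 transcripts were chosen by their measured values. Counts were scaled to CPM (a library's counts divided by its column sum and multiplied by 1000000) and averaged within each group. A transcript was taken if its control mean was at least 5 CPM, its erastin mean at least 0.5 CPM, and its log2 ratio of erastin over control -1.5 or lower. Its log2 ratio of the co-treatment over control also had to lie between -0.4 and 0.4, with 0.5 CPM added to each mean before every ratio. Finally, its highest erastin library had to lie below its lowest control and lowest co-treated library, and its mean over all 9 libraries under 1000 CPM. All 3 differences between the groups thus entered the choice, so the sizes given here describe the members, and no p-value is attached to them.

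The libraries were made from wild-type PC12, a line of neuron-like cells derived from a tumour of the rat adrenal medulla. There were 3 libraries of cells given erastin together with PQR NPs (the co-treatment), 3 of cells given erastin alone, which the series uses as its PD model, and 3 of untreated cells (the control). All groups are 1 cell line, and the sources used here give neither doses, times nor the composition of the particles. Poly(A) RNA was sequenced in bulk, so that fewer cells carrying a transcript and less of it per cell cannot be told apart. Whether separate cultures stand behind the 3 libraries of each group is not stated, and the spread between them may be technical. Total counts ran from 34772755 to 40826754 per library.

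Erastin blocks the antiporter that brings cystine into the cell in exchange for glutamate. Cells short of cystine make less glutathione, the cofactor with which glutathione peroxidase 4 clears lipid peroxides, and iron-driven lipid peroxidation then leads to ferroptosis. PC12 cells make and store catecholamines and are widely used as a stand-in for dopamine neurons. A level of messenger RNA reflects both its synthesis and its decay, and these counts do not separate the one from the other. The table lists Ensembl transcript IDs without gene names, and 0 of the 224 IDs were found in the reference tables used here, so the members carry no gene name, role or sequence below. Nor could the labelled cell type be checked against marker genes. Members are called by their rank, 1 for the highest mean CPM in control. CPM is not divided by transcript length, and the ranks therefore order read counts and not molecules.

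The choice narrowed as follows. Of the 11114 transcripts with a control mean of at least 5 CPM, 590 had a log2 ratio of erastin over control of -1.5 or lower, and 562 of these kept an erastin mean of at least 0.5 CPM. In 309 of the 562 strong falls (55.0%) the co-treated mean was more than 0.4 below control on the log2 scale. In 15 it was more than 0.4 above control, and in 238 it lay within the window. The libraries of 14 of the 238 overlapped, among them 5 with a control or co-treated library under 1 CPM, and the remaining 224 are the members (39.9% of the strong falls). The limit of 1000 CPM removed none. Members just inside the limit on the fall had log2 ratios of -1.502, -1.503 and -1.504, and the transcripts just outside it -1.497, -1.494 and -1.494. At the lower end of the window the values were -0.397, -0.392 and -0.391 inside and -0.4001, -0.4006 and -0.405 outside, and at its upper end 0.3998, 0.397 and 0.386 inside and 0.435, 0.436 and 0.451 outside. The lowest control means inside were 5.07, 5.30 and 5.38 CPM and the nearest outside were 4.97, 4.74 and 4.51 CPM. The lowest erastin means inside were 0.670, 0.729 and 0.835 CPM and the nearest outside 0.296, 0.0288 and 0 CPM.

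Together the members took a small share of the counts. Their summed share was 1.824%, 1.830% and 1.812% in the 3 co-treated libraries, 0.504%, 0.514% and 0.484% in the erastin libraries, and 2.009%, 1.904% and 1.812% in the control libraries. The means were 1.82% ± 0.00929 under co-treatment, 0.501% ± 0.0152 with erastin and 1.91% ± 0.0988 in control (SD, n = 3 each). The erastin shares lay well apart from the others, while the lowest control library was level with the co-treated ones.

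Seen member by member, the median level with erastin was 26.6% of the control mean, and under co-treatment 90.0% of it. The log2 ratio of erastin over control had a median of -1.81 over the 224 members (interquartile range -2.06 to -1.64), against 0.01 over all 17123 transcripts tested. For the co-treatment over erastin the median was 1.70, against 0.04 over all transcripts tested. The co-treatment over control gave -0.15, against 0.02. By library, the median log2 ratio of the members to the control mean was -0.17, -0.15 and -0.15 in the co-treated libraries and -1.77, -1.81 and -1.86 in the erastin libraries. The choice placed every erastin library of every member below control, so these medians describe the members only.

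**Figure D1:**
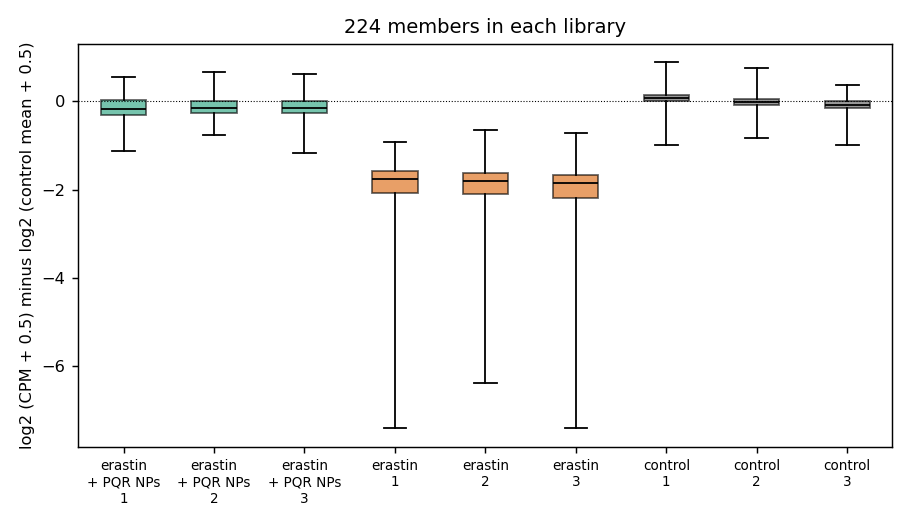
Level of the 224 members in each library, as the log2 of CPM plus 0.5 minus the log2 of the control mean plus 0.5 (boxes, the middle 50% of members; line, median; whiskers, lowest and highest member). The 3 erastin boxes have medians from -1.86 to -1.77, and the co-treated boxes lie slightly below 0, with medians from -0.17 to -0.15.

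The choice required a gap between the highest erastin library and the lowest of the other 6, and its limits on the group means largely set the size of that gap. As a description, its median over the members was 1.34 on the log2 scale (interquartile range 1.10 to 1.55). In 6 members the gap was under 0.5, the smallest being 0.17.

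The members spanned a wide range of levels. Their means ran from 4.25 to 1313 CPM under co-treatment with a median of 39.9 CPM, from 0.670 to 344.0 CPM with erastin with a median of 11.6 CPM, and from 5.07 to 1222 CPM in control with a median of 44.6 CPM. In control 51 had a mean of 100 CPM or more, 146 lay between 10 and 100 CPM and 27 were under 10 CPM. Split by control mean into 4 tiers of 56 members, the median log2 ratio of erastin over control was -1.77 in the highest tier, then -1.89 and -1.79, and -1.80 in the lowest tier. Falls of 2 or more on that scale numbered 19, 22, 18 and 10 in the tiers, from the highest to the lowest. The 0.5 CPM added to each mean makes the ratios of low members smaller, and the erastin minimum of 0.5 CPM bounds their falls. Without that addition, the median erastin level was 29.2%, 26.2%, 27.6% and 25.8% of control in the tiers, in the same order. Shallower falls at low level are therefore not read from the counts. For the co-treatment over control the same tiers had medians of -0.11, -0.22, -0.20 and -0.10.

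The 10 members with the highest control level held 35.1% of the members' counts under co-treatment, 32.2% with erastin and 33.0% in control. Their erastin means were 8.91% to 35.1% of control, and their co-treated means 76.8% to 119% of control. The member of rank 1, ENSRNOT00000073321, had 1351, 1212 and 1191 CPM in the co-treated libraries, 383, 323 and 326 CPM in the erastin libraries and 1255, 1132 and 1281 CPM in the control libraries. Its co-treated and control libraries overlapped, and all 3 erastin libraries lay far below both. In edgeR's model its log2 fold change was -1.82 ± 0.08 (SE) for erastin against control and 1.79 ± 0.08 for the co-treatment against erastin. The SE was taken as the size of the fold change divided by the square root of the test's F statistic. This SE does not cover the choice of members, which used the same contrasts.

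At rank 2 the co-treated libraries stood above control: 1436, 1297 and 1207 CPM under co-treatment, 325, 329.9 and 317 CPM with erastin, and 1110, 1149.8 and 1064 CPM in control. This was the one member of the first 10 whose co-treated libraries all lay above all control libraries. The member of rank 5 had 589, 543 and 463 CPM under co-treatment, 99.8, 132 and 105 CPM with erastin and 611, 630.0 and 518 CPM in control, and its co-treated mean was 90.6% of control. Rank 7 gave 357, 377 and 392 CPM under co-treatment, 103, 79.2 and 72.0 CPM with erastin and 429, 407 and 354 CPM in control. In both, the co-treated libraries overlapped control.

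Rank 8 had 299, 292 and 279 CPM under co-treatment, 96.2, 87.7 and 76.5 CPM with erastin and 328, 299.9 and 277 CPM in control, and its co-treated range lay within its control range. Rank 9 stood nearer to the lower end of the window, with 194, 205 and 201 CPM under co-treatment, 96.7, 85.8 and 84.1 CPM with erastin and 295, 251 and 235 CPM in control. Here all co-treated libraries lay below all control libraries, and the co-treated mean was 76.8% of control. Rank 10 had 224, 278 and 285 CPM under co-treatment, 74.2, 78.3 and 80.1 CPM with erastin and 274, 239 and 261 CPM in control, so that the co-treated range enclosed the control range.

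The other members of this group were ranks 3, 4 and 6. Rank 4 had the widest control range of the 10 in CPM, with 673, 822 and 862 CPM under co-treatment, 304, 244 and 242 CPM with erastin and 773, 877 and 601 CPM in control. Ranks 3 and 6 had erastin libraries far apart from each other and are described with the members of that kind below.

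**Figure D2:**
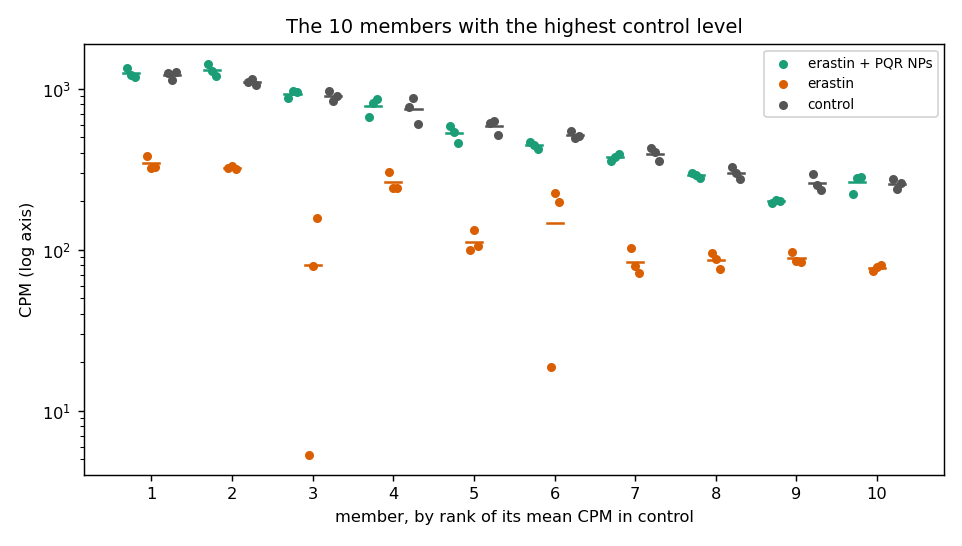
CPM of the 10 members with the highest control mean in each library, on a log axis (points, libraries; short lines, group means; members by rank). Each erastin point lies below every co-treated and control point of the same member, and ranks 3 and 6 have a single erastin library far under the other erastin points, at 5.30 and 18.6 CPM.

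The deepest fall was that of ENSRNOT00000001682, the member of rank 108. It had 34.7, 41.3 and 40.3 CPM under co-treatment, 3.77, 1.46 and 2.50 CPM with erastin, and 51.0, 49.8 and 47.0 CPM in control. With erastin it was at 5.23% of its control mean, and under co-treatment at 78.8%, with every co-treated library below every control library. Its log2 ratio of erastin over control was -4.02. In edgeR's model its log2 fold change was -4.25 ± 0.31, with the SE taken as for rank 1. That SE does not cover its being picked as the deepest fall, so the size is a description only. The other deep falls were those of ranks 43, 3, 191 and 58. Rank 43 had 142, 136 and 151 CPM under co-treatment, 11.6, 6.86 and 8.74 CPM with erastin and 81.7, 129.7 and 148 CPM in control, where replicate 1 was the lowest.

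Rank 191 was a low member, with 14.0, 12.9 and 15.5 CPM under co-treatment, 0.699, 1.06 and 0.748 CPM with erastin and 14.3, 13.2 and 12.4 CPM in control. Rank 58 had 74.2, 82.6 and 87.8 CPM under co-treatment, 12.8, 13.2 and 10.8 CPM with erastin and 103.8, 90.3 and 91.7 CPM in control. Such falls were rare among the members. In 155 members the log2 ratio of erastin over control was above -2, in 69 it was -2 or lower, in 13 it was -2.5 or lower and in 4 it was -3 or lower.

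At the shallow end stood ranks 210, 157, 24, 4 and 198. Rank 198 was among the members, described below, whose erastin libraries lay over 4 times apart. Its erastin mean thus joins unlike libraries, and it was not called lower with erastin. Rank 24 had 160.3, 174 and 168 CPM under co-treatment, 57.3, 56.7 and 57.4 CPM with erastin and 178, 157 and 153 CPM in control, so that the erastin mean was 35.1% of control. Rank 157 had 21.5, 21.8 and 20.1 CPM under co-treatment, 6.24, 8.49 and 10.1 CPM with erastin and 31.3, 22.8 and 18.9 CPM in control. Rank 210 had 6.26, 6.69 and 6.65 CPM under co-treatment, 1.86, 1.77 and 2.56 CPM with erastin and 8.18, 6.62 and 5.47 CPM in control. In the last 2 members the control libraries lay further apart than the co-treated ones did.

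Within the window, more members lay on the lower side. The co-treated mean was below the control mean in 169 members (75.4%) and above it in 55, while over all transcripts tested it was below control in 47.3%. The same control mean also entered the ratio that chose the falls. A control mean that was high by sampling thus favours both being chosen and a co-treated ratio below 0. The transcripts tested were not chosen in this way, and the size of this effect was not tested. By steps of 0.2 on the log2 scale, 96 members lay between -0.4 and -0.2, 73 between -0.2 and 0, 36 between 0 and 0.2, and 19 between 0.2 and 0.4. Among all 562 strong falls the steps just below the window held 81 transcripts (-0.6 to -0.4) and 83 (-0.8 to -0.6), and 89 were at -1 or lower. The strong falls thus ran on without a gap across the lower edge of the window. With libraries scaled by edgeR's TMM method in place of column sums, the median log2 ratio of the members for the co-treatment over control was -0.21 in place of -0.15.

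**Figure D3:**
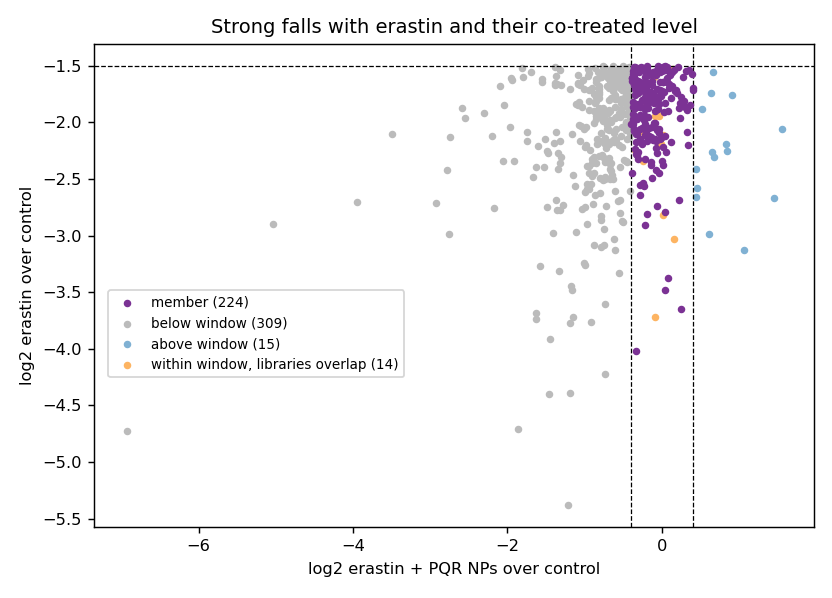
The 562 strong falls, each point 1 transcript, by log2 ratio of erastin plus PQR NPs over control (horizontal) and of erastin over control (vertical), with the limits of the choice as dashed lines. The 224 members fill the window from -0.4 to 0.4 more densely on its lower side, and 309 transcripts continue the spread to the left of it.

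Library by library, co-treated and control ranges overlapped in 132 members (58.9%). All co-treated libraries lay below all control libraries in 77 members (34.4%), against 17.3% of all transcripts tested. The opposite order was found in 15 members (6.70%), against 21.1% of all transcripts tested. In edgeR's quasi-likelihood test, fitted on all 17123 transcripts and called at a Benjamini-Hochberg adjusted p under 0.05, 26 members were called lower than control under co-treatment (11.6%, with 9.21% of all transcripts tested called lower). Another 1, rank 53, was called higher (0.446%, with 7.70% of all called higher), with 134, 131 and 123 CPM under co-treatment and 109, 95.5 and 91.4 CPM in control. The choice of members limited this contrast, so nothing is read from these shares. The log2 ratios of the 26 ran from -0.40 to -0.27, and all 26 had co-treated and control libraries that did not overlap. That 197 members were not called does not show that they were at the control level. Leaving out a co-treated library (replicates 1, 2 and 3) turned the 27 calls into 5, 6 and 4, leaving out erastin replicate 3 into 16, and leaving out control replicates 1 and 2 into 14 and 12. With the replicate number as a block they were 17. The share over all transcripts moved as well. With the block, 16 members were called lower (7.14%), with 8.89% of all called lower. Without co-treated replicates 1, 2 and 3 the members called lower were 2.23%, 2.68% and 1.79%, with 4.81%, 3.74% and 3.89% of all. Without erastin replicate 3 they were 6.70%, with 6.78% of all, and without control replicates 1 and 2 they were 5.80% and 5.36%, with 8.19% and 4.91% of all. The members' share called lower was thus below that over all transcripts under the block and in 5 of these 6 fits, and above it without control replicate 2. It was also above without each of the other 3 libraries, as with all 9. The window bounds the members and not all transcripts, so nothing is read from these orders either.

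In the contrasts with erastin, whose direction the choice fixed, nearly all members were called. Against control 215 of the 224 were called lower with erastin (96.0%), where 26.3% of all transcripts tested were, and the co-treatment against erastin called 214 higher (95.5%), where 25.3% of all were. All 9 members not called against control, and 9 of the 10 not called against erastin, were members whose erastin libraries lay over 4 times apart. The tenth was rank 156, whose co-treated libraries had 11.1, 38.0 and 11.4 CPM, its erastin libraries 6.81, 5.43 and 5.95 CPM and its control libraries 45.9, 15.9 and 12.2 CPM. In it, 1 co-treated and 1 control library stood far above the others of their group.

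In 13 members the erastin libraries lay over 4 times apart, as the ratio of the highest to the lowest CPM after adding 0.5 CPM to both, a limit set after the values were seen. That was 5.80% of the members, against 3.62% of all transcripts tested. Among the 11114 transcripts with a control mean of at least 5 CPM the share was 2.49%. It was 6.60% of 288 strong falls whose erastin libraries all lay below control and whose co-treated mean was more than 0.4 below it. In no member did the co-treated or the control libraries lie over 4 times apart. The rule itself limits this on the low side, since those libraries had to stay above the highest erastin library. The lowest library was not the same in all 13: erastin replicate 1 was lowest or tied for lowest in 5, replicate 2 in 2 and replicate 3 in 7.

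The highest of these was rank 3, with 878, 964 and 953 CPM under co-treatment, 5.30, 79.4 and 157 CPM with erastin and 966, 841 and 903 CPM in control. Its erastin mean of 80.5 ± 75.7 CPM (SD, n = 3) was thus carried by replicates 2 and 3. Rank 6 had 469, 450.3 and 422 CPM under co-treatment, 18.6, 225 and 199 CPM with erastin and 548, 495 and 506 CPM in control. Rank 18 had 195, 205 and 200.3 CPM under co-treatment, 24.4, 94.1 and 8.63 CPM with erastin and 223, 208 and 166 CPM in control. Co-treated and control libraries overlapped in ranks 3 and 18. In rank 6 all co-treated libraries lay below all control libraries, with a co-treated mean of 86.6% of control. The erastin libraries lay far apart in each of these members.

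In 7 of the 13 at least 1 erastin library had no count at all, where 3 counts, the most that a count of 0 allows, would be 0.0807 to 0.0863 CPM. Rank 64 had 87.1, 81.5 and 77.8 CPM under co-treatment, no count in erastin replicates 1 and 3 and 45.0 CPM in replicate 2, and 85.6, 94.4 and 71.8 CPM in control. Rank 119 had 32.8, 35.6 and 38.0 CPM under co-treatment, no count in erastin replicate 2 and 17.8 and 18.0 CPM in the other erastin libraries, and 49.3, 41.4 and 32.0 CPM in control. Rank 130 likewise had 24.2, 30.5 and 28.4 CPM under co-treatment, no count in erastin replicate 2 and 11.1 and 10.2 CPM in the other erastin libraries, and 35.3, 34.4 and 36.3 CPM in control. The part of read assignment in such switches was not tested, as the sources used here do not say how reads shared by several transcripts were counted. Without the 13, the median log2 ratio of erastin over control over the remaining 211 members was -1.81, as over all 224.

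**Figure D4:**
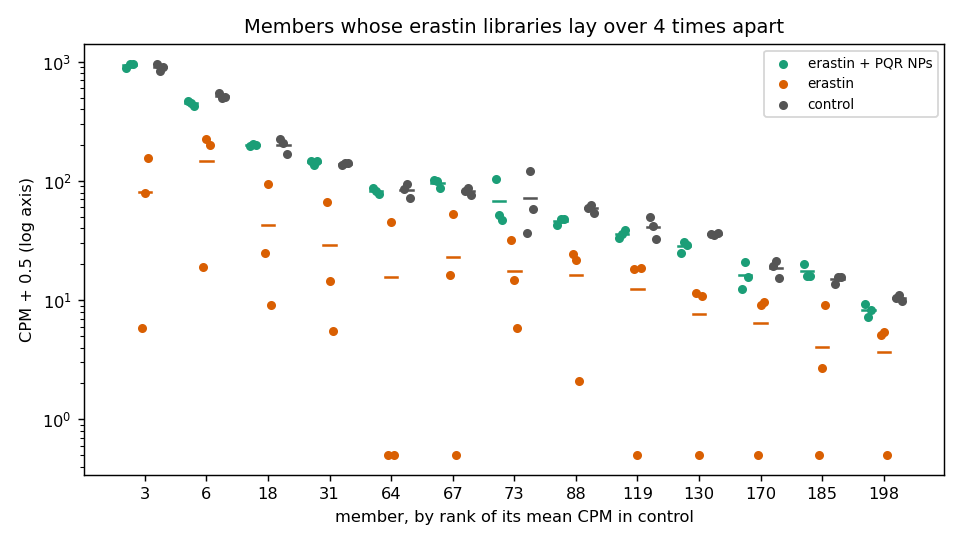
CPM plus 0.5 of the 13 members whose erastin libraries lay over 4 times apart, on a log axis (points, libraries; short lines, group means; members by rank). Points at 0.5 are libraries without a count, found with erastin in 7 of the 13 members and in none of the co-treated or control libraries.

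The spread within a group was described by the coefficient of variation. The median coefficient of variation over all 224 members was 6.95% under co-treatment, 13.4% with erastin and 9.09% in control. Over the 11114 transcripts with a control mean of at least 5 CPM it was 8.04%, 10.7% and 10.5%. The choice limited the spread of co-treated and control libraries, which had to stay above the highest erastin library. It also placed the members low with erastin, at a median of 11.6 CPM against 34.6 CPM over those transcripts. Among the members, the median erastin coefficient of variation was 9.65% in the highest tier of control level and rose towards the lowest tier. The differences in spread are therefore not read as traits of the members. By the ratio used above, co-treated libraries differed over 2-fold in 4 members (ranks 73, 133, 156 and 221) and control libraries in 4 (ranks 73, 118, 156 and 221). Rank 73 had 102.6, 51.1 and 46.9 CPM under co-treatment, 31.7, 14.3 and 5.35 CPM with erastin and 35.8, 121 and 57.8 CPM in control.

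The control libraries were not alike over the members. Control replicate 1 was the highest control library in 133 members (59.4%) and replicate 3 the lowest in 129 (57.6%), where over the transcripts with a control mean of at least 5 CPM replicate 1 was highest in 40.1% and replicate 3 lowest in 37.0%. The median deviation from the control mean of log2 values was 0.08 in replicate 1 and -0.08 in replicate 3 over the members, and 0.02 and 0.00 over those transcripts. Without control replicate 1 the median log2 ratio of the co-treatment over control was -0.11, and without control replicate 3 it was -0.19, against -0.15 with all libraries. Among the erastin libraries replicate 1 was highest in 46.4% of members, close to the 46.2% over those transcripts.

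The median control mean was 44.6 CPM for the members. It was 37.7 CPM for the 288 strong falls whose co-treated mean was more than 0.4 below control. Not all of the 288 came back in part: their log2 ratios of the co-treatment over erastin reached down to -0.71. The median log2 ratio of those 288 was -1.997 for erastin over control and -0.76 for the co-treatment over control. The mirror image of the choice, transcripts raised by 1.5 or more on the log2 scale with erastin and within 0.4 of control under co-treatment, with the same limits turned round, took 593 transcripts. The co-treated mean was below control in 75.4% of the members and in 41.1% of these rises, whose median control mean was 9.21 CPM. For the rises, the minimum of 5 CPM applied to the erastin mean and that of 0.5 CPM to the control mean. Their control level and number are therefore not compared with those of the members. All these sets were chosen on the same libraries and share the control group, and the differences between them were not tested.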

How the data were processed

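Raw counts, whole numbers that were not normalized, were deposited by the authors as 1 table with a row for each Ensembl transcript and a column for each of the 9 libraries. HISAT2 2.2.1 and the build Rnor 6.0 are named in the submitters' processing notes. Not given in the sources used here are the counting program, the annotation, the use of strand and the handling of reads shared between transcripts. Overlapping and near-identical transcripts are therefore uncertain. Columns were matched to libraries through the sample titles, and 0 columns were left unused.

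Members, limits and lists were chosen with earlier results of these data known. CPM on column sums set the members, with a pseudocount of 0.5 CPM in every ratio. Calls came from edgeR 4.0.16 (R 4.3.3; quasi-likelihood test, TMM, edgeR's filter on low counts, all 9 libraries, Benjamini-Hochberg adjustment over 17123 transcripts), and DESeq2 1.42.0 was an alternative. All 224 members passed the filter. The scripts were tested on simulated data. Described members were fixed as ranks 1 to 10, the 5 deepest and 5 shallowest falls and 3 values on each side of every limit, with 2 IDs printed. Ranks 18, 53, 64, 73, 118, 119, 130, 133, 156 and 221 were added after their values were seen. Gene lists were not used, as 0 IDs matched names. Libraries of a group differed by more than sampling noise (chi-square per degree of freedom 31.7 to 71.4). Floors cover counting error only.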

Additional observations from a re-analysis of the deposited data

How the results depend on the processing

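The number of members was 224, and 217 to 263 with 1 library left out and the choice repeated, of which 192 to 211 were among the 224; 132 were chosen whichever library was left out. It was 786 with a fall of at least 1, 69 with a fall of at least 2 and 109 with a window of 0.2, and its other alternatives stayed within 1.5 times, from 196 with TMM scaling to 305 with a window of 0.6. The median log2 ratio of the members was -1.81 for erastin over control, -1.89 with a pseudocount of 0.1 and -1.72 with a pseudocount of 1. For the co-treatment over control it was -0.15, -0.21 with TMM and -0.17 with upper quartile scaling, and -0.19 to -0.11 with 1 library left out. Members called with erastin against control numbered 208 to 216 and with the co-treatment against erastin 207 to 217 over all 16 alternatives each. In the edgeR refits called at an adjusted p under 0.05, 17.7% to 27.9% of all transcripts were called lower with erastin than in control. In the same refits 18.1% to 28.6% of all were called higher under co-treatment than with erastin. The 27 called with the co-treatment against control were 14 without a filter on low counts, 17 with the replicate block, 1 at an adjusted p of 0.01 and 4 to 26 with 1 library left out. The other alternatives gave 19 with upper quartile scaling, 36 with DESeq2 and 20 with only the 6 libraries compared. They gave 27 without the members whose erastin libraries lay over 4 times apart, a setting added once the data had been seen. Called lower were 8.04% of members with upper quartile scaling (7.43% of all transcripts), 8.48% with the 6 libraries (7.88% of all) and 5.80% without the filter (3.91% of all). Called higher were 0.446% in each, with 8.72%, 8.48% and 5.28% of all. DESeq2 called 33 of 222 members lower and 3 higher, and 2054 and 1911 of all 25127 transcripts. The 222 are the members with an adjusted p, while the 25127 include transcripts without one. These shares are therefore not on the same footing. Nothing is read from these counts. The causes were not tested. The replicate numbers were not taken to pair the libraries: deviations of same-numbered libraries correlated at -0.00372 to 0.136, over 0.1 in 2 of 9 pairs, and with the block 214 members were called lower with erastin than in control, in place of 215, and 214 higher under co-treatment than with erastin, as without it. No group of 3 libraries can be searched for an outlying library by the rule used for larger groups.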
